A study of Mus musculus with 12 samples.

Results

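The 10 genes described here encode enzymes that write, maintain or remove methyl groups on cytosine in DNA and core subunits of the Polycomb complex that methylates histone H3. They were chosen by symbol, as *Dnmt1*, *Dnmt3a*, *Dnmt3b*, *Uhrf1*, *Tet1*, *Tet2*, *Tet3*, *Ezh1*, *Ezh2* and *Suz12*, and all 10 were found among the 16152 genes of the count table. RNA was sequenced from whole lungs of C57BL/6 mice in the embryo (days E15.5 and E18.5) and after birth (days P5 and P8), with 3 replicates at each time-point and no treatment or genetic change. The comparisons follow development, from E15.5 to E18.5 before birth, from E18.5 to P5 across birth and from P5 to P8 after it. Each time-point is a single litter, which all 3 of its replicates share, so time-point and litter cannot be told apart, and the p-values measure only the spread between these samples. Levels are given as CPM, the counts of a gene per 1000000 mapped reads of its library.

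DNA methylation patterns are copied at each round of replication by DNMT1, which UHRF1 brings to newly replicated, half-methylated DNA, while DNMT3A and DNMT3B can methylate DNA that carries no methyl group. The TET enzymes oxidise methylcytosine and so start its removal. Polycomb repressive complex 2 (PRC2) methylates lysine 27 of histone H3 through one of the alternative catalytic subunits EZH2 and EZH1, held in the complex by SUZ12. EZH2 and UHRF1 are known for high expression in dividing cells and EZH1 for expression in non-dividing ones, and the late embryonic and early postnatal lung is a tissue in which proliferation slows while airspaces mature.

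The 12 libraries held between 41337443 and 53901957 counts, with a median of 46869635, and no 2 libraries of a time-point agreed within sampling noise (mean chi-square per gene from 12.98 to 75.3). The markers of lung epithelium (*Sftpc*, *Nkx2-1*, *Epcam*), endothelium (*Pecam1*, *Cdh5*) and mesenchyme (*Col1a1*, *Pdgfra*) were present in every library. Thymocyte genes stood out in 3 libraries, with *Rag1* at 11.97 CPM in E15.5 replicate 2, 77.8 in P8 replicate 1 and 155.7 in P8 replicate 2, against at most 4.19 CPM in the other 9. In E15.5 replicate 2, *Cd3e* and *Ptcra* were raised within the time-point as well, at 1.65 and 2.20 CPM. *Dntt* was not, at 0.177 CPM against 0.145 and 0.197 in replicates 1 and 3. In whole-organ RNA, fewer cells of a type and less RNA per cell cannot be told apart.

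The genes lie on 8 chromosomes (Gencode vM21, genome build GRCm38). Of the DNA methylation genes, *Dnmt1* (ENSMUSG00000004099) is at chr9:20907209-20959888, *Uhrf1* (ENSMUSG00000001228) at chr17:56303321-56323486, *Dnmt3a* (ENSMUSG00000020661) at chr12:3806007-3914443 and *Dnmt3b* (ENSMUSG00000027478) at chr2:153649450-153687730. *Tet1* (ENSMUSG00000047146) is at chr10:62804570-62908996, *Tet2* (ENSMUSG00000040943) at chr3:133463679-133545139 and *Tet3* (ENSMUSG00000034832) at chr6:83362373-83459084. The Polycomb genes *Ezh2* (ENSMUSG00000029687), *Ezh1* (ENSMUSG00000006920) and *Suz12* (ENSMUSG00000017548) are at chr6:47530139-47595341, chr11:101191115-101226463 and chr11:79993106-80034123. Exons of *Suz12*, *Ezh2*, *Dnmt3a* and *Tet2* share 3.6%, 2.61%, 0.799% and 0.255% of their bases with an annotated gene on the opposite strand, and whether reads were counted by strand is not given in the sources used here. None of these 4 neighbouring genes was in the count table.

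The promoters are described here beside the changes across birth, in which 8 of the 10 genes fell, as did 35.7% of all genes tested. No link between the promoters and the changes was tested. RefSeq (GRCm38.p6) gave 15 promoter windows for the 10 genes, each from 250 bases before to 50 after a transcription start. They were searched on both strands for TTTCCCGC and TTTGGCGC, letters of the kind bound by the E2F factors of the cell cycle, for CCAAT, the NF-Y type, and for TTTGAA, the type found at late cell cycle genes. Either E2F type was found in the windows of 3 genes, *Dnmt1*, *Ezh2* and *Suz12*, and in 1.56% of all 32851 windows. A gene could have more than 1 window (*Dnmt1* has 3), so counts of genes and shares of windows are unlike measures. The matches are printed 5′ to 3′ on the strand of the gene, with the motif in capitals, and lie at chr9:20952574-20952601 (minus strand, 33 bases after the start), chr6:47595009-47595038 (minus strand, 3 bases after the start) and chr11:79992876-79992905 (plus strand, 219 bases before the start).
Dnmt1: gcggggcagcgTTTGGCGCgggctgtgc
Ezh2: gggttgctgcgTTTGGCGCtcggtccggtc
Suz12: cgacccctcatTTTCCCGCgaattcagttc

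*Uhrf1* held no E2F letters in its 2 windows, but 5 matches to CCAAT, which was present in windows of 5 of the 10 genes (*Dnmt1*, *Uhrf1*, *Tet3*, *Ezh2*, *Suz12*) and in 37.41% of all windows. CCAAT read forward and its reverse complement ATTGG overlap where the letters CCAATTGG occur, as in *Dnmt1* and *Uhrf1*, and each reading was counted. The 2 matches in the *Uhrf1* window at the downstream start are at chr17:56304152-56304178 and chr17:56304195-56304221 on the plus strand, 150 and 107 bases before that start. The *Ezh2* match nearest its start is at chr6:47595026-47595052 on the minus strand, 11 bases before the start, and is in the reverse reading.
Uhrf1, at 150 bases: ggtcatctaggCCAATcgcatgcgagg
Uhrf1, at 107 bases: cccgggaggagCCAATcagcagcgagc
Ezh2, at 11 bases: aagcgatggcgATTGGgttgctgcgtt

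TTTGAA was found in windows of *Dnmt1*, *Dnmt3b* and *Suz12* and in 17.89% of all windows. The windows of *Dnmt3a*, *Tet1*, *Tet2* and *Ezh1* held none of the 4 sets of letters. The CpG observed over expected ratio of the 15 windows ran from 0.101 for the upstream window of *Dnmt1* to 1.17 for *Tet2*, beside a median of 0.384 over all windows. The shares over all windows were not matched for CpG content or for the number of windows of a gene. These are letter matches only, and no binding was measured.

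Levels of different genes were compared per kilobase of merged exons. At E15.5 *Uhrf1* was highest at 63.4 CPM per kb, followed by *Dnmt1* at 33.7 and *Suz12* at 21.5 CPM per kb, with ranges that did not overlap their neighbours. *Ezh2* at 16.3 and *Dnmt3a* at 15.2 CPM per kb came next and overlapped each other. *Tet3* (6.45), *Dnmt3b* (4.36) and *Ezh1* (3.28 CPM per kb) were lower, and *Tet1* (1.94) and *Tet2* (1.68 CPM per kb) were lowest, with overlapping ranges. At P5 the order had changed, with *Suz12* first at 13.9 CPM per kb, *Uhrf1* (12.8) and *Dnmt1* (12.6) overlapping behind it, and *Dnmt3a* next at 9.10 CPM per kb. *Ezh2* (5.20) and *Ezh1* (5.11 CPM per kb) overlapped at P5, where *Dnmt3b* was last at 1.43 CPM per kb. At P8 *Uhrf1* was first again, at 18.1 CPM per kb, followed by *Dnmt1* at 15.4 and *Suz12* at 13.7 CPM per kb, each overlapping the next.

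**Figure D1:**
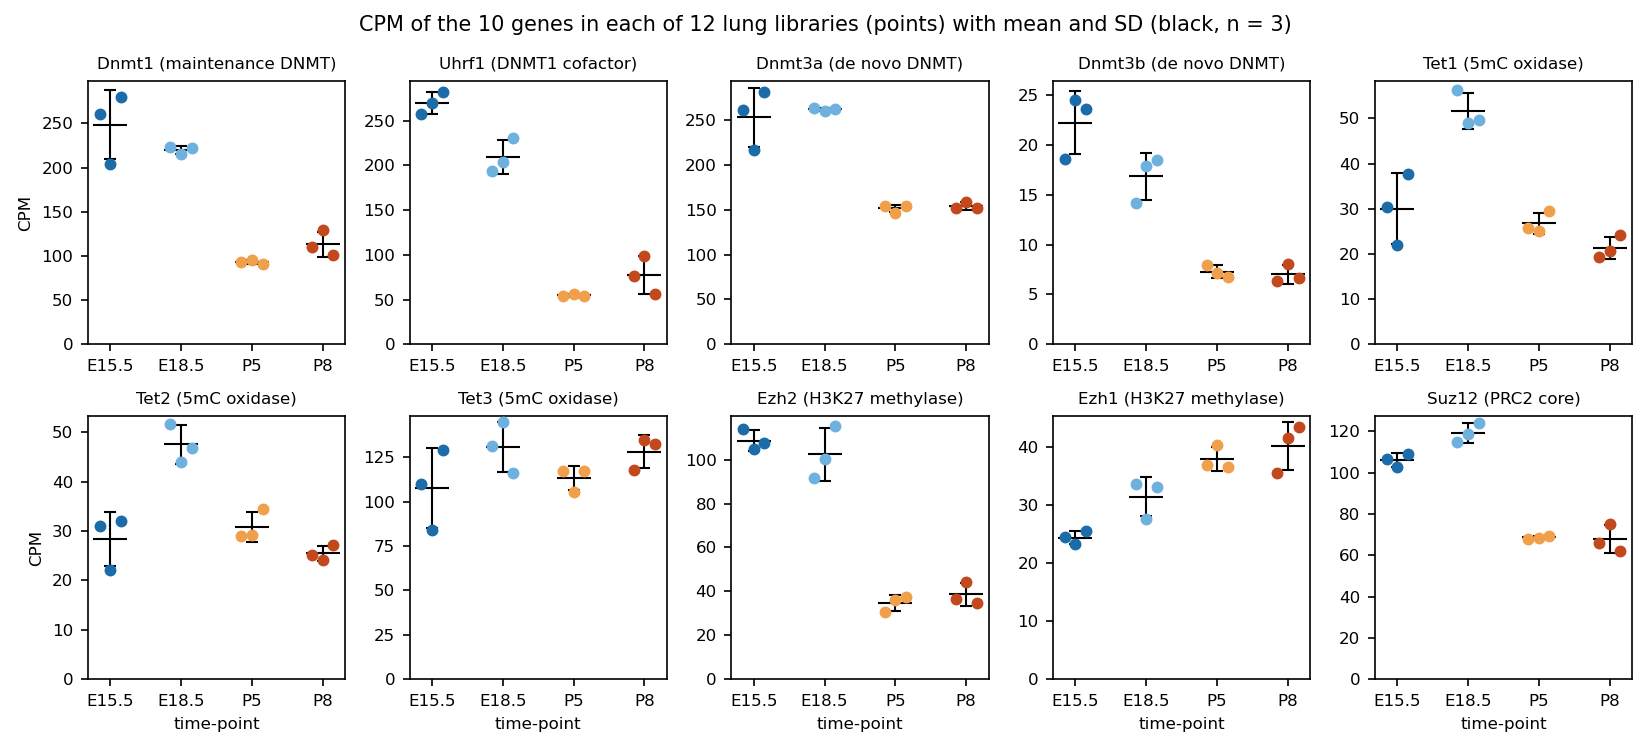
CPM (vertical axes, each from 0) of the 10 genes in the 12 libraries (points) over the 4 time-points, with the mean and SD of the 3 replicates in black. The panels of *Dnmt1*, *Uhrf1*, *Dnmt3a*, *Dnmt3b*, *Ezh2* and *Suz12* show every postnatal point below every embryonic one, that of *Ezh1* shows the opposite, and *Tet1* and *Tet2* are highest at E18.5.

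Before birth, *Tet1*, *Tet2* and *Ezh1* rose and none of the 10 genes fell. Rises past the threshold (edgeR false discovery rate, FDR, under 0.05) were found for 11.6% of the 15994 genes tested and falls for 9.87%, and the median log2 fold change of the 10 genes was 0.11, against -0.01 over all genes. *Tet1* was at 30.4, 21.9 and 37.8 CPM in replicates 1, 2 and 3 at E15.5, at 56.3, 49.0 and 49.6 at E18.5, at 25.8, 25.02 and 29.4 at P5 and at 19.4, 20.6 and 24.1 at P8. All 3 E18.5 libraries were above all others, and the rise from E15.5 was 1.72-fold (log2 fold change 0.79, standard error 0.16, edgeR FDR = 0.0057). *Tet2* was at 31.1, 22.1 and 32.1 CPM at E15.5, then 51.7, 44.0 and 46.8 at E18.5, 28.9, 29.2 and 34.4 at P5 and 25.1, 24.2 and 27.1 at P8. It had the same shape, with every E18.5 library above every library of the other time-points and a rise of 1.68-fold from E15.5 (log2 fold change 0.75, standard error 0.13, edgeR FDR = 0.0027).

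*Ezh1* rose 1.30-fold before birth (log2 fold change 0.38, standard error 0.088, edgeR FDR = 0.012). Its levels were 24.5, 23.2 and 25.5 CPM in the E15.5 libraries and 33.7, 27.5 and 33.2 CPM in the E18.5 libraries, without overlap. This call was lost without E18.5 replicate 1 (log2 fold change 0.31, edgeR FDR = 0.051). *Dnmt3b* and *Uhrf1* were lower in every E18.5 library than in every E15.5 library but were not past the threshold, with log2 fold changes of -0.40 (edgeR FDR = 0.065) and -0.36 (edgeR FDR = 0.097). Under DESeq2 both were past it (adjusted p = 0.045 and 0.048), as was *Suz12* (log2 fold change 0.18, adjusted p = 0.047), which edgeR gave at 0.17 (FDR = 0.071). *Uhrf1* was also past it in an edgeR fit of E15.5 and E18.5 alone (-0.35, FDR = 0.013). For *Dnmt1*, *Dnmt3a*, *Tet3* and *Ezh2* the ranges of E15.5 and E18.5 overlapped, with log2 fold changes of -0.17, 0.06, 0.29 and -0.08 (edgeR FDR between 0.14 and 0.66). The E15.5 library with thymocyte genes, replicate 2, was the lowest of its time-point for 8 of the 10 genes, all but *Uhrf1* and *Dnmt3b*. Without it, the change of *Dnmt1* before birth was -0.29 and past the threshold (edgeR FDR = 0.041), and that of *Dnmt3a* was -0.04 (FDR = 0.66). Other calls that appeared with 1 library left out were those of *Dnmt3b* without E15.5 replicate 1 (-0.52, edgeR FDR = 0.035), *Tet3* without E15.5 replicate 3 (0.44, FDR = 0.022), and *Uhrf1* (-0.35 in both cases) and *Suz12* (0.19 in both) without P8 replicate 2 or 3.

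Across birth, 8 of the 10 genes fell and *Ezh1* rose. Falls were called for 35.7% of all genes tested and rises for 35.4%, and the median log2 fold change was -0.79 over the 10 genes and near 0 (-0.0024) over all genes. *Uhrf1*, *Ezh2*, *Dnmt1* and *Dnmt3b* also passed the cutoff of an absolute log2 fold change above 1, which 9.34% of all genes passed in the downward direction.

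The maintenance pair fell most among the DNA methylation genes in the case of *Uhrf1* and less in that of *Dnmt1*. *Uhrf1* was at 258, 269.9 and 282 CPM at E15.5, then 194, 204 and 231 at E18.5, 53.4, 56.5 and 54.04 at P5 and 76.6, 99.0 and 56.1 at P8. Its highest P5 library was far below its lowest E18.5 library, and the fall was 3.61-fold (log2 fold change -1.85, standard error 0.15, edgeR FDR = 3.3e-07). *Dnmt1* was at 261, 204 and 279.7 CPM at E15.5, then 223, 215 and 222 at E18.5, 93.2, 95.2 and 90.5 at P5 and 109.8, 129 and 101.1 at P8. The time-points on the 2 sides of birth did not overlap, and it fell 2.23-fold (log2 fold change -1.15, standard error 0.11, edgeR FDR = 1.1e-06).

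Of the de novo methyltransferases, *Dnmt3b* was the less abundant, at 18.6, 24.5 and 23.7 CPM at E15.5, then 14.1, 17.9 and 18.51 at E18.5, 8.01, 7.14 and 6.74 at P5 and 6.34, 8.09 and 6.62 at P8. It fell 2.17-fold across birth (log2 fold change -1.12, standard error 0.15, edgeR FDR = 2.0e-05), with no postnatal library in the embryonic range. *Dnmt3a* was at 262, 217 and 281 CPM at E15.5, then 263, 260.1 and 263 at E18.5, 154, 147 and 154 at P5 and 152, 159 and 152 at P8. Its fall was smaller, 1.63-fold (log2 fold change -0.70, standard error 0.081, edgeR FDR = 6.9e-06), again without overlap.

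The TET genes did not move alike. *Tet1* and *Tet2*, which had risen before birth, fell 1.82-fold and 1.45-fold (log2 fold changes -0.86 and -0.54, edgeR FDR = 3.3e-04 and 0.0021), to P5 levels of 26.8 ± 2.34 and 30.8 ± 3.09 CPM (SD, n = 3). Both P5 means lay within the range of the E15.5 libraries, and *Tet2* in P5 replicate 3, at 34.4 CPM, was above that range. *Tet3* was at 109.6, 84.3 and 129 CPM at E15.5, then 131, 145 and 116 at E18.5, 117, 105 and 117 at P5 and 118, 135 and 132 at P8. Its ranges at E18.5 and P5 overlapped, and the change was -0.12 on the log2 scale (standard error 0.13, edgeR FDR = 0.44).

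Among the PRC2 genes, *Ezh2* fell 2.78-fold (log2 fold change -1.48, standard error 0.099, edgeR FDR = 6.1e-08). It was at 114, 105 and 107 CPM at E15.5, then 91.5, 100.4 and 116 at E18.5, 30.7, 36.0 and 37.4 at P5 and 36.6, 44.5 and 34.7 at P8, so that its highest postnatal library lay below 0.5 times its lowest embryonic one. *Ezh1* went the other way, at 37.0, 40.4 and 36.6 CPM at P5 and 35.5, 41.5 and 43.4 at P8, all above its embryonic libraries, a rise of 1.28-fold across birth (log2 fold change 0.36, standard error 0.088, edgeR FDR = 0.0028). *Suz12*, the subunit that both catalytic forms need, was at 107, 103 and 109 CPM at E15.5, then 115, 119 and 124 at E18.5, 68.0, 68.4 and 69.5 at P5 and 65.8, 75.2 and 62.1 at P8. It fell 1.63-fold (log2 fold change -0.71, standard error 0.064, edgeR FDR = 7.6e-07), with no overlap between the embryonic and postnatal libraries. Summed over 10 erythroid genes, CPM rose from between 4059 and 4776 at E18.5 to between 11997 and 19679 at P5 (9 of the 10 genes rose and *Hbb-y* fell), and the leukocyte gene *Ptprc* went from 3.42 to 51.7 CPM. The lung markers moved over the same interval in mean CPM, *Sftpc* from 1417 to 12281, *Pecam1* from 310.5 to 590 and *Cdh5* from 350.4 to 771, against *Epcam* from 209 to 63.8, *Nkx2-1* from 216 to 140.3, *Col1a1* from 871 to 665 and *Pdgfra* from 179 to 148. The part of these cell types in the changes across birth was not tested.

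**Figure D2:**
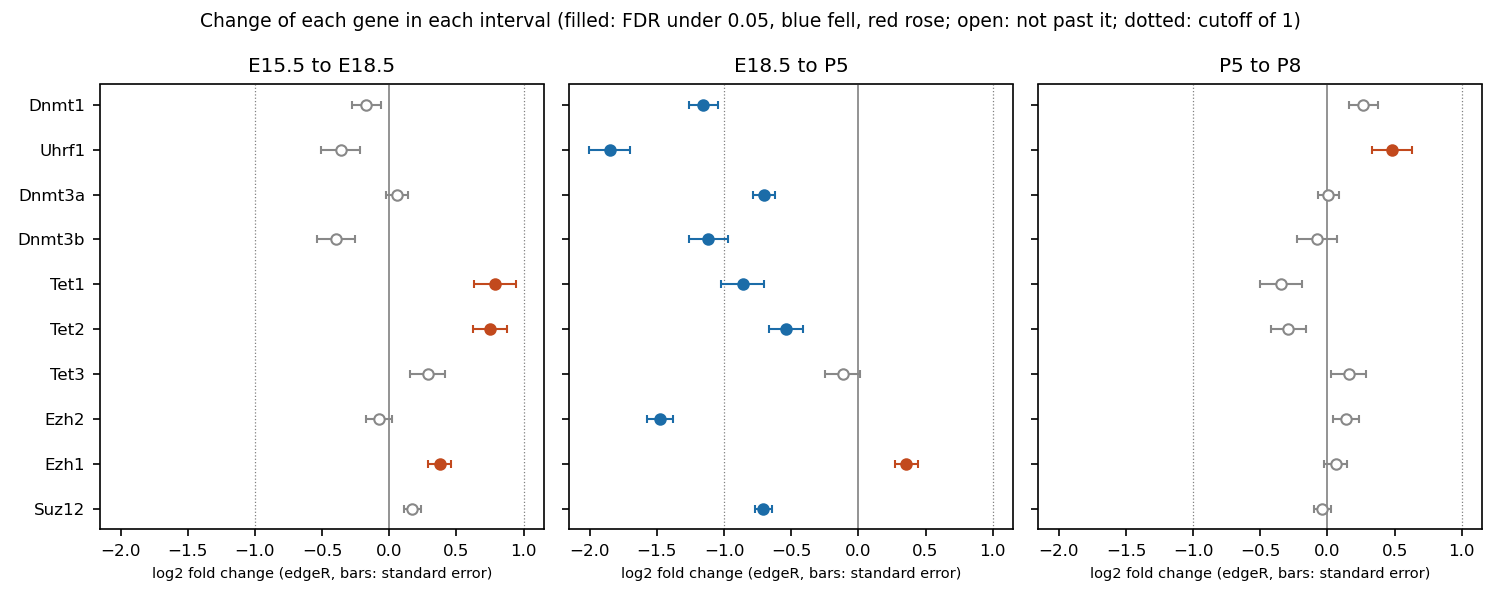
Log2 fold change of each gene (rows) from edgeR in each interval (panels), with bars for the standard error, filled points past an FDR of 0.05 (blue fell, red rose) and dotted lines at the cutoff of 1. In the middle panel 8 genes lie to the left and *Ezh1* to the right, while in the outer panels 3 genes and 1 gene are filled.

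The difference between intervals was tested in the same edgeR fit. The change across birth was below the change before birth for 8 genes, all but *Tet3* and *Ezh1*, where 25.2% of all genes tested were called in that direction. The difference was largest for *Tet1* (-1.65, standard error 0.26, edgeR FDR = 3.2e-04), *Uhrf1* (-1.49, FDR = 4.1e-04), *Ezh2* (-1.40, FDR = 3.7e-05) and *Tet2* (-1.29, FDR = 4.3e-04) on the log2 scale. That of *Dnmt3b* (-0.72, edgeR FDR = 0.028) was not past the threshold without E15.5 replicate 1, without E18.5 replicate 2 or 3, or without P5 replicate 3 (-0.60, -0.63, -0.59 and -0.67, with FDR between 0.050 and 0.13). Against the interval after birth, the change across birth was lower for 6 genes, *Dnmt1*, *Dnmt3a*, *Dnmt3b*, *Uhrf1*, *Ezh2* and *Suz12*, with 25.9% of all genes called in that direction. The largest difference was that of *Uhrf1* (-2.33, standard error 0.27, edgeR FDR = 2.2e-05). *Tet3* was past the threshold in the first of these tests without E15.5 replicate 3 (-0.56, edgeR FDR = 0.026), and *Tet1* in the second without E15.5 replicate 2 (-0.52, FDR = 0.035). The intervals share the E18.5 or the P5 libraries, and they span unequal times.

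From P5 to P8, *Uhrf1* was the only gene of the 10 past the threshold, at 0.48 on the log2 scale (standard error 0.15 and FDR = 0.042 by edgeR), beside 9.75% of all genes called as rising and 8.21% as falling. The rise lay in 2 libraries. P8 replicates 1 and 2 were at 76.6 and 99.0 CPM, above the P5 libraries, while replicate 3, at 56.1 CPM, lay within their range of 53.4 to 56.5 CPM. The same 2 libraries held the thymocyte genes, of which 9 of the 12 tested rose from P5 to P8. The sum of the 13 listed genes was 400.2, 709.3 and 111.5 CPM in P8 replicates 1, 2 and 3, against 99.1 to 114.9 CPM at P5, and the thymocyte gene *Dntt* was at 21.5, 42.7 and 0.723 CPM in the P8 libraries. Without these 2 libraries and E15.5 replicate 2, P8 kept only replicate 3. The change of *Uhrf1* was then 0.01 on the log2 scale, which can only restate the level of that library. In E15.5 replicate 2, *Uhrf1* was at 269.9 CPM, between the other libraries of that time-point. Whether the thymocyte genes have a part in the rise of *Uhrf1* was not tested. The call of *Uhrf1* was lost in 8 of the 12 fits that left out 1 library each (E15.5 replicate 1, E18.5 replicate 1 or 2, any P5 library, or P8 replicate 1 or 2), with FDR between 0.052 and 0.17. It was lost too with a replicate block (0.47, FDR = 0.062) and in a fit of the 6 P5 and P8 libraries alone (0.49, FDR = 0.083).

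*Dnmt1* was higher in every P8 than in every P5 library, but its rise of 0.27 on the log2 scale missed the threshold (standard error 0.11, edgeR FDR = 0.10). Its P8 levels had the same order as the thymocyte sum, as did those of *Uhrf1*, *Ezh2* and *Suz12*. The summed CPM of 23 genes of S phase had this order too, at 1153, 1289 and 1039 in P8 replicates 1, 2 and 3. *Tet1* and *Tet2* were lower in every P8 library than in every P5 library, with log2 fold changes of -0.34 and -0.29 (FDR = 0.15 and 0.13 by edgeR). In a fit of the P5 and P8 libraries alone these 2 genes, and not *Uhrf1*, were past the threshold, at -0.34 and -0.29 (edgeR FDR = 0.044 and 0.048). Without E15.5 replicate 2, the changes of *Dnmt1*, *Tet1* and *Tet2* kept these sizes and were past the threshold (edgeR FDR = 0.032, 0.043 and 0.036). Without the 3 libraries with thymocyte genes, which left a lone P8 library, that of *Dnmt1* was 0.10. The other 6 genes had log2 fold changes between -0.08 and 0.16 with an edgeR FDR of at least 0.36. Among them, *Tet3* was also higher in every P8 than in every P5 library, narrowly (at least 117.8 against at most 117.5 CPM). The share of all genes without overlap between P5 and P8 is not given here.

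**Figure D3:**
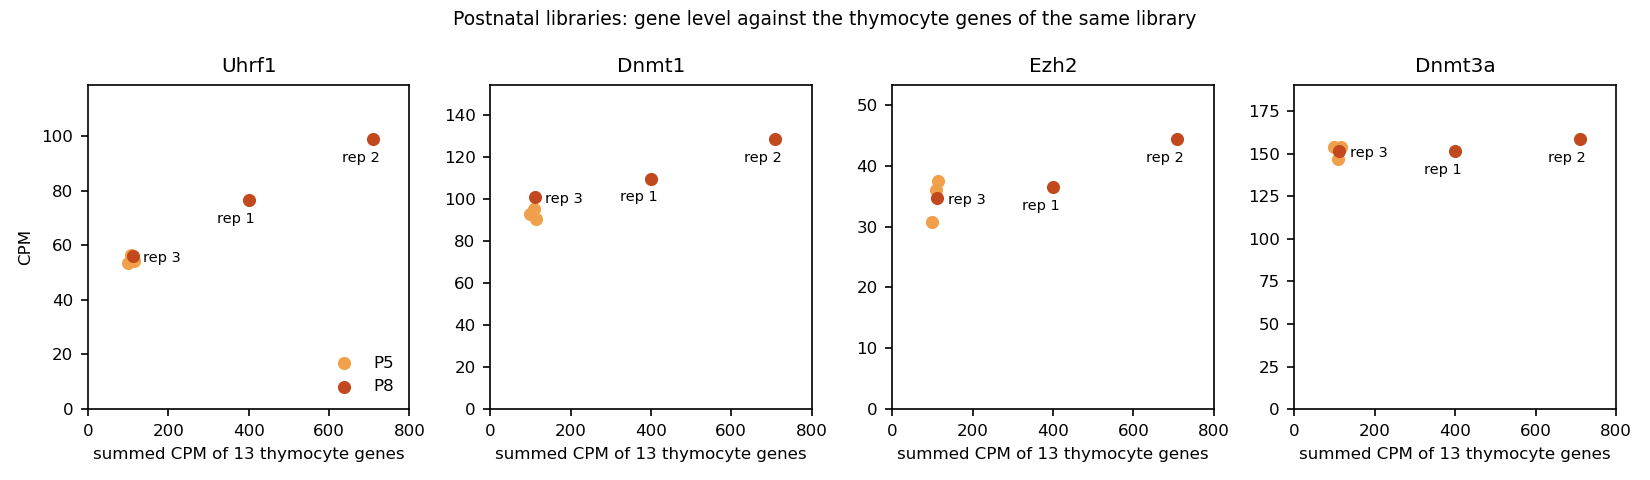
CPM of *Uhrf1*, *Dnmt1*, *Ezh2* and *Dnmt3a* (vertical axes, from 0) against the summed CPM of 13 thymocyte genes (horizontal axes) in the 3 P5 and 3 P8 libraries (points). P8 replicates 1 and 2 stand to the right at 400.2 and 709.3 CPM, *Uhrf1* is highest there, at 76.6 and 99.0 CPM, and *Dnmt3a* stays between 147 and 159 CPM in all 6 libraries.

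Over the whole span from E15.5 to P8, 7 genes fell and *Ezh1* and *Tet3* rose, where 38.7% of all genes tested fell and 37.6% rose. The 4 genes past the fold change cutoff were again *Uhrf1* (-1.73), *Dnmt3b* (-1.59), *Ezh2* (-1.42) and *Dnmt1* (-1.06 on the log2 scale), with 11.5% of all genes past both cutoffs in that direction, and *Dnmt1* was short of the fold change cutoff without E15.5 replicate 3 (-0.96) or P8 replicate 3 (-0.98). *Dnmt3a* (-0.64), *Suz12* (-0.57) and *Tet1* (-0.42, edgeR FDR = 0.028) fell by less. *Ezh1* rose 1.73-fold (log2 fold change 0.79, standard error 0.088, edgeR FDR = 3.7e-06). In *Tet3* the rise was 0.33 (edgeR FDR = 0.037) and the ranges overlapped. It was not past the threshold without the 3 libraries with thymocyte genes (0.23, FDR = 0.17), with library size only (0.26, FDR = 0.085), in a fit of E15.5 and P8 alone (0.33, FDR = 0.083) or without E15.5 replicate 1 or 2, P5 replicate 3, or P8 replicate 2 or 3 (0.18 to 0.33, FDR between 0.055 and 0.14). The fall of *Tet1* was not past it without E15.5 replicate 1 or 3 or P8 replicate 1 or 2 (-0.22 to -0.42, FDR between 0.059 and 0.16), nor in the fit of E15.5 and P8 alone (-0.42, FDR = 0.088). *Tet2* changed by -0.08 (edgeR FDR = 0.57), by -0.23 and past the threshold without E15.5 replicate 2 (FDR = 0.044) and by 0.02 without E15.5 replicate 3 (FDR = 0.90).

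With the time-points of each side of birth pooled, 6 genes were lower in all 6 postnatal than in all 6 embryonic libraries (*Dnmt1*, *Dnmt3a*, *Dnmt3b*, *Uhrf1*, *Ezh2* and *Suz12*), as were 32.5% of all genes tested. Only *Ezh1* of the 10 was higher in all postnatal libraries, as were 26.6% of all genes. The lowest, median and highest values of *Uhrf1* were 194, 245 and 282 CPM in the embryonic and 53.4, 56.3 and 99.0 CPM in the postnatal libraries. For *Ezh2* they were 91.5, 106 and 116 CPM, and 30.7, 36.3 and 44.5 CPM. *Ezh1* went from 23.2, 26.5 and 33.7 CPM to 35.5, 38.7 and 43.4 CPM, so the gap at birth was narrow for this gene and wide for the other catalytic subunit.

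Ratios of counts within a library, in which library size cancels, were used to ask whether related enzymes moved apart. The number of *Ezh1* counts per *Ezh2* count was 0.215, 0.222 and 0.237 in the E15.5 libraries, 0.369, 0.274 and 0.287 at E18.5, 1.20, 1.12 and 0.978 at P5 and 0.972, 0.934 and 1.25 at P8. The transcripts of the 2 catalytic subunits were thus counted about equally after birth, and the ratio was 4.08-fold higher postnatally (log2 ratio -1.93 ± 0.29 embryonic and 0.10 ± 0.18 postnatal, SD, n = 6 each, exact permutation test, two-sided, p = 0.0022). *Ezh1* was higher and *Ezh2* lower in all 6 postnatal libraries, so their ratio could not overlap. The p-value of this pair was fixed by those levels and adds nothing to them. Within the embryonic period the *Ezh1* to *Ezh2* ratio was higher in each E18.5 library than in each E15.5 library.

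The *Dnmt3a* to *Dnmt3b* ratio also rose, from a log2 ratio of 3.74 ± 0.36 to 4.42 ± 0.13 (n = 6 each), a change of 1.61-fold (exact permutation p = 0.0022). *Uhrf1* counts per *Dnmt1* count went from a log2 ratio of 0.03 ± 0.20 to -0.67 ± 0.18, which is 0.613 times the embryonic ratio (exact permutation p = 0.0022). The TET genes separated too. *Tet3* counts rose 1.67-fold relative to *Tet1* (log2 ratio 1.60 ± 0.31 to 2.34 ± 0.29) and *Tet2* counts 1.25-fold relative to *Tet1* (-0.09 ± 0.10 to 0.23 ± 0.08), each with an exact permutation p = 0.0022. Within the embryonic period the mean log2 ratio of *Tet3* to *Tet1* went down, from 1.85 at E15.5 to 1.34 at E18.5. It was 2.09 at P5 and higher still at P8, at 2.59. The highest embryonic library of this pair was at 1.94 and the lowest postnatal one at 1.99. In all 5 pairs the embryonic and postnatal libraries did not overlap, which gives the smallest p that the 924 arrangements allow, and the value adjusted over the 5 pairs (Benjamini-Hochberg) was the same. These arrangements treat the libraries as exchangeable, though those of a time-point share a litter, so the p-values do not cover differences between litters. Such a lack of overlap was common, since it held for 57% of all pairs that can be made from the genes with counts in every library. The step from E18.5 to P5 alone changed the log2 ratios by 1.84, 0.41, -0.69, 0.32 and 0.75 for *Ezh1* to *Ezh2*, *Dnmt3a* to *Dnmt3b*, *Uhrf1* to *Dnmt1*, *Tet2* to *Tet1* and *Tet3* to *Tet1*, where 3 against 3 libraries cannot go below an exact permutation p of 0.1.

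**Figure D4:**
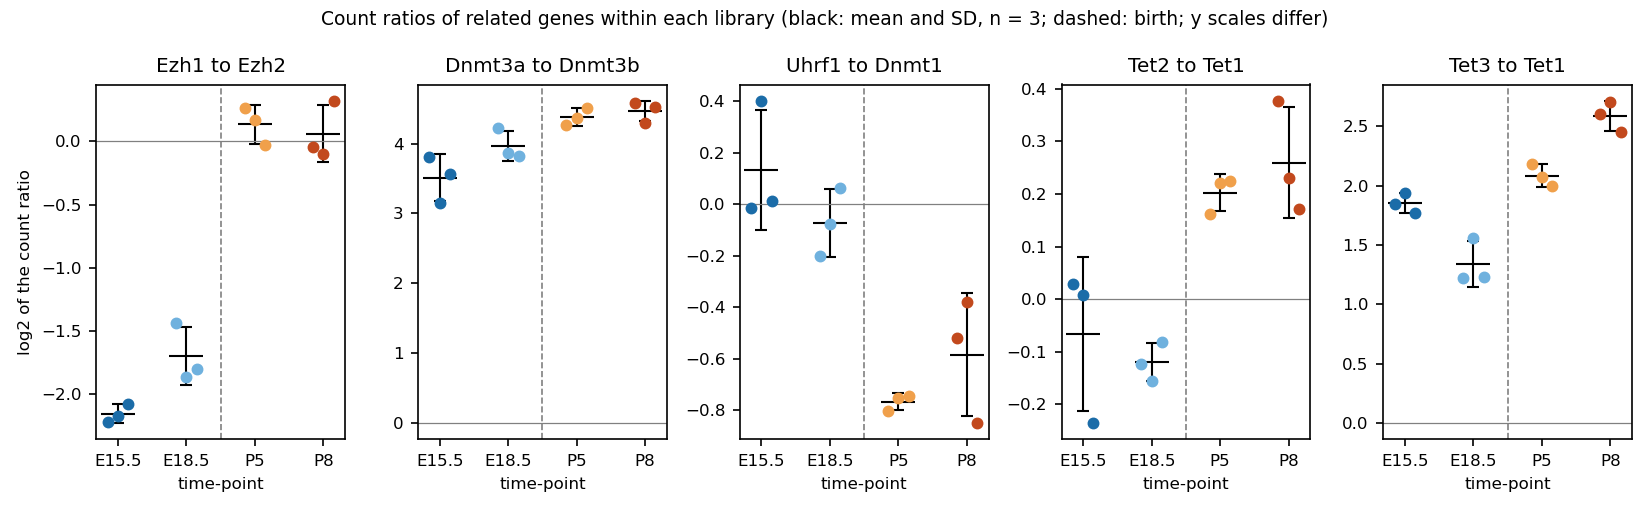
Log2 ratio of the counts of 5 pairs of genes in the 12 libraries (points) over the 4 time-points, with the mean and SD (n = 3) in black and birth as a dashed line. In each panel no postnatal point falls within the range of the embryonic points, and the *Ezh1* to *Ezh2* ratio shifts most, from a mean of -1.93 to 0.10.

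Several of these genes are known to be expressed with DNA replication, so they were set beside 23 genes of S phase. All 23 fell across birth and 18 passed both cutoffs, with a median log2 fold change of -1.29, and the summed CPM went from 2405, 2587 and 2766 at E18.5 to 1014, 1124 and 1062 at P5. The 10 genes of G2 and mitosis all fell as well, with a median of -1.39. Over all genes tested, 35.7% fell across birth and 9.34% passed both cutoffs in that direction. Relative to the S-phase sum of the same library, *Dnmt1* changed by 0.03 and *Dnmt3b* by 0.08 on the log2 scale from E18.5 to P5, and the ranges of both time-points overlapped. *Uhrf1* fell further than the sum, by -0.66, and *Ezh2* by -0.28, without overlap. From E15.5 to E18.5, *Ezh2* had risen by 0.17 relative to the sum, also without overlap. From E15.5 to P8 its change was -0.08 with overlap, and that of *Uhrf1* was -0.42 without overlap. Across birth the 23 genes themselves fell by between -0.68 and -1.80 on the log2 scale. Thus *Ezh2* (-1.48) lay inside their spread, with 4 of the 23 falling more, and *Uhrf1* (-1.85) just beyond it. Relative to the same sum, *Suz12* (0.48), *Dnmt3a* (0.49), *Tet2* (0.65), *Tet3* (1.08) and *Ezh1* (1.55) were higher at P5 in every library, and *Tet1* (0.33) overlapped. The S-phase sum itself fell, while the median log2 fold change over all genes was near 0 (-0.0024). A gene that does not change therefore rises relative to the sum, and *Suz12*, *Dnmt3a* and *Tet2* themselves fell. These relative values are descriptions, with no test.

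**Figure D5:**
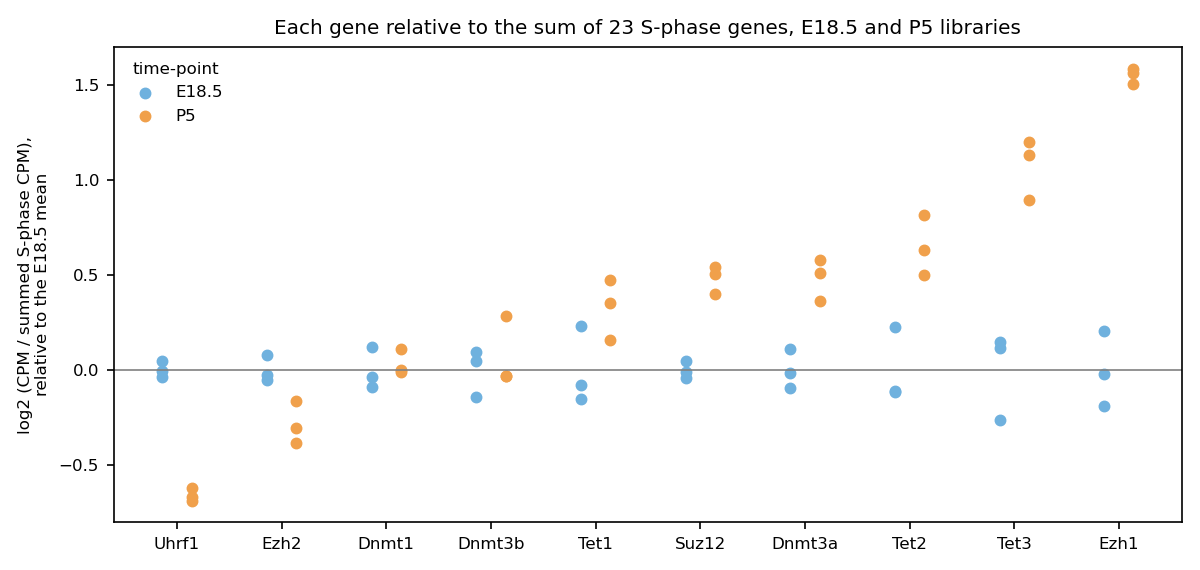
Log2 of each gene's CPM over the summed CPM of 23 S-phase genes in the 3 E18.5 and 3 P5 libraries (points), relative to the E18.5 mean of that gene. *Uhrf1* and *Ezh2* lie below 0 at P5 (means -0.66 and -0.28), *Dnmt1* and *Dnmt3b* overlap their E18.5 points, and *Ezh1* lies highest at 1.55. The sum itself fell from E18.5 to P5, so a gene that does not change lies above 0.

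Over the 12 libraries, *Ezh2* was most alike to *Mcm10* (Pearson r = 0.997 of log2(CPM + 1)), *Entpd6* and *Rfc5* (both 0.997), and *Uhrf1* to *Cdc6* (0.997), *Parp1* (0.996) and *Noc2l* (0.996), among 10611 genes compared. *Mcm10*, *Rfc5* and *Cdc6* act in DNA replication. The nearest genes were *Smarca4* (0.996), *Polr1a* (0.995) and *Sf3b3* (0.994) for *Dnmt1*, and *Tmem97* (0.992), *Ddx20* (0.991) and *Wdr36* (0.990) for *Dnmt3b*. *Ezh1* had looser neighbours, *Traf5* (0.966), *Plekho2* (0.963) and *Foxp1* (0.961). Within the 10 genes, *Uhrf1* and *Dnmt1* (r = 0.98), *Uhrf1* and *Ezh2* (0.98) and *Tet1* and *Tet2* (0.96) were close, *Ezh1* and *Ezh2* ran in opposite directions (-0.83), and *Tet3* was between -0.21 and 0.46 with the other 9. The points share their 4 time-points and litters, so these values describe mainly the pattern over time.

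The other genes of these pathways were read from the same fit. Across birth, 35.7% of all genes fell and 35.4% rose, so falls and rises within a list are frequent in any case, and the genes named below describe the lists and do not set them apart. Of 9 PRC2 partners tested, 7 fell and 2 rose (median log2 fold change -0.70). *Epop*, a PRC2 accessory factor, was at 24.7 ± 2.84 CPM at E18.5 and 8.16 ± 0.898 at P5 (log2 fold change -1.51, edgeR FDR = 9.2e-07). *Phf1*, which joins PRC2 to chromatin, rose from 13.2 ± 0.706 to 26.7 ± 0.839 CPM (1.11, FDR = 3.8e-08). *Ezhip* was not found in the table.

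Of 21 PRC1 genes, 10 fell, 3 rose and 8 did not pass the threshold (median -0.17), beside 35.7% and 35.4% of all genes. The chromodomain subunits, which read methylated H3, moved in both directions. *Cbx2* fell from 69.7 ± 4.83 to 24.5 ± 2.14 CPM (-1.42, edgeR FDR = 1.1e-08), and *Cbx7* rose from 5.63 ± 0.447 to 10.7 ± 1.93 CPM (1.01, FDR = 1.4e-05). *Pcgf6* (-1.46, edgeR FDR = 6.3e-07) and *Bcor* (-1.04, FDR = 3.1e-06), parts of variant PRC1 complexes, fell as well. Neither of the H3 lysine 27 demethylases, *Kdm6a* (-0.34, edgeR FDR = 0.21) and *Kdm6b* (-0.26, FDR = 0.14), was past the threshold.

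Of 20 partners and readers of DNA methylation tested, 9 fell and 8 rose (median -0.10), near the shares of 35.7% and 35.4% over all genes, and *Dnmt3l* and *Dppa3* were too low to test. *Hells*, a remodelling factor needed for DNA methylation, fell from 96.8 ± 13.5 to 28.5 ± 3.05 CPM (-1.68, edgeR FDR = 1.0e-07). *Uhrf2*, the paralogue of *Uhrf1*, fell from 104 ± 9.33 to 46.6 ± 2.79 CPM (-1.07, FDR = 1.2e-07), and *Trim28*, a corepressor at methylated repeats, from 495 ± 41.4 to 192 ± 11.1 CPM (-1.28, FDR = 3.4e-08). *Mbd4*, a glycosylase that binds methylated DNA, fell too (-1.12, edgeR FDR = 2.7e-06). *Zbtb4*, a zinc finger protein that binds methylated DNA, rose from 29.4 ± 6.81 to 112 ± 3.18 CPM (2.02, edgeR FDR = 9.9e-08). *Gadd45b* (1.38, edgeR FDR = 3.7e-05) and *Gadd45a* (1.19, FDR = 4.3e-05), stress-response genes linked to demethylation, rose as well. From P5 to P8, 1 of the 20 fell and none rose, while in PRC1 3 of the 21 rose and 4 fell, and 1 of the 9 PRC2 partners (*Phf1*, 0.24, edgeR FDR = 0.031) rose. Over all genes tested, 9.75% rose and 8.21% fell in that interval.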

How the data were processed

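RNA libraries of whole lung, 3 replicates at each of 4 time-points, were prepared with TruSeq protocols and sequenced as paired-end reads of 101 nt. Per the labels and the study's methods, the authors aligned the reads to mm10 with TopHat2 2.1.1 and Bowtie2 2.3.4, counted reads per gene with HTSeq 0.10.0 and deposited raw counts of 16152 genes kept as expressed. The authors also deposited CPM values of 51825 genes, each count scaled to 1000000 mapped reads of its library. Whole reads could be recovered from 100.0% of these CPM values (tolerance 0.01 reads). The deposited splicing table names events and not genes and was not used.

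Gene identifiers were matched to symbols for 16136 of 16152 genes. Differential gene expression was computed from the counts with edgeR 4.0.16 (R 4.3.3), using TMM normalization, the quasi-likelihood test and 1 fit of all 12 libraries, over the 15994 genes that reached 1 CPM in 3 or more libraries. A gene rose or fell at a Benjamini-Hochberg FDR under 0.05, adjusted over all genes tested, and differential expression also needed an absolute log2 fold change above 1. Count ratios were compared with exact permutation tests that enumerated the arrangements (Python 3.11.15). Alternatives were DESeq2 1.42.0, other scalings, no filter, a replicate block, fits of the time-points compared, each library left out in turn, leaving out the 3 libraries with thymocyte genes and, added after seeing the data, the edgeR test on the reads recovered from CPM.

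Named beside the 10 genes were the pathway genes past both cutoffs from E18.5 to P5 with a mean of at least 1 CPM, and the 3 genes most correlated with *Dnmt1*, *Dnmt3b*, *Uhrf1*, *Ezh2* and *Ezh1* among those with a mean of at least 10 CPM. *Kdm6a* and *Kdm6b* were named outside this rule, after their values were seen, as were the thymocyte, erythroid and leukocyte genes used as markers. The 10 genes and all lists were chosen with earlier results of these data known. Replicate numbers did not pair the libraries, since 3 of 18 same-numbered pairs across time-points had deviations correlated above 0.1 (range -0.34 to 0.30).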

Additional observations from a re-analysis of the deposited data

Results flagged for a closer look

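*Tet1* and *Tet2* rose in every E18.5 library relative to E15.5 and fell in every P5 library relative to E18.5. The change across birth minus the change before birth was -1.6483 for *Tet1* and -1.2885 for *Tet2* on the log2 scale (edgeR FDR = 3.2e-04 and 4.3e-04), by a test of the difference itself.

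Single libraries stood apart in 2 of the 30 groups of libraries examined with Dixon's test, where chance alone gives about 5%. The lowest of the 6 embryonic *Dnmt3a* values was 217.1 CPM, in E15.5 replicate 2, with the next at 260.1 CPM. The highest of the 6 postnatal *Tet2* to *Tet1* log2 ratios was 0.3775, in P8 replicate 1, with the next at 0.2301. Both libraries are among the 3 with thymocyte genes, and no cause was tested.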

How the results depend on the processing

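The calls from E18.5 to P5 were the same 9 under every alternative: *Ezh1* rose and the other 8 fell. With 1 library left out, 9 were called there, 2 to 5 from E15.5 to E18.5, 0 to 4 from P5 to P8 and 7 to 9 from E15.5 to P8. The number called from E15.5 to E18.5, 3 in the fit reported, was 6 under DESeq2 and 5 without the 3 libraries with thymocyte genes. The number called from P5 to P8, 1 as reported, was 2 (*Tet1* and *Tet2*) in a fit of those time-points alone and 0 without the 3 libraries with thymocyte genes. Over all genes, the 1559 rises and 1313 falls from P5 to P8 became 272 and 210 without those 3 libraries, which also left fewer samples. In the ratios, the step from E18.5 to P5 alone gave 1.84, 0.41, -0.69, 0.32 and 0.75, each at p = 0.1, the smallest 3 against 3 libraries allow in an exact permutation test. With 1 library left out the ratios moved between 1.97 and 2.12 (*Ezh1* to *Ezh2*), 0.56 and 0.78 (*Dnmt3a* to *Dnmt3b*), -0.76 and -0.63 (*Uhrf1* to *Dnmt1*), 0.29 and 0.35 (*Tet2* to *Tet1*) and 0.67 and 0.81 (*Tet3* to *Tet1*). Changes of sign were found only for values not past the threshold as reported. Without the 3 libraries with thymocyte genes, *Dnmt3a* changed by -0.044 before birth and -0.0223 after it, *Ezh2* by -0.0224 after birth, and the interval difference of *Ezh1*, across against before birth, was 0.0297. With 1 library left out, *Dnmt3a* ranged from -0.0446 to 0.14 before birth and from -0.0373 to 0.0366 after it. After birth *Dnmt3b* ranged from -0.18 to 0.0146, *Ezh1* from -0.0064 to 0.11 and *Suz12* from -0.11 to 0.0123. *Tet2* from E15.5 to P8 ranged from -0.23 (without E15.5 replicate 2, past the threshold) to 0.0201, and the interval difference of *Ezh1* from -0.20 to 0.11. The causes of these shifts were not tested.

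With the replicate number as a block, 0 genes were called from P5 to P8, where *Uhrf1* changed by 0.47 (edgeR FDR = 0.062), and the ratios kept their values, 2.03 for *Ezh1* to *Ezh2* (exact permutation p = 0.00926 within numbers). No other call changed with the block. The numbers do not pair these libraries. Each time-point rests on 3 libraries of 1 litter. The gene with the fewest reads, *Dnmt3b*, had at least 309 counts in every library.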
